A study of Mus musculus with 6 samples.

Results

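The genes described here are 10 nuclear receptor genes that were listed by name: the liver X receptors Nr1h3 (LXRα) and Nr1h2 (LXRβ), the retinoid X receptors Rxra and Rxrb, the peroxisome proliferator-activated receptors Pparg and Ppard, the glucocorticoid receptor Nr3c1, the orphan receptor Nr4a1, the retinoic acid receptor Rara and the clock repressor Nr1d2. They are 10 of the 23337 rows of a table of RNA sequencing counts per gene, and all 10 were among the 12923 genes with enough counts to be tested. The table covers bone marrow-derived macrophages of 3 genotypes with 2 libraries each. LXRdKO cells carry a knockout of both LXR genes, Ch25hKO cells lack Ch25h, the enzyme that makes the oxysterol 25-hydroxycholesterol, and wild-type cells (WT) carry neither. Every group was given as C57BL/6, was grown to day 7 in medium with 10% M-CSF, a macrophage growth factor, and received LPS, a bacterial cell wall component, at 100 ng/ml for 8 h. No unstimulated cells were analysed here, so no value below is a response to LPS. The alleles, the sex and age of the mice, and the question whether the libraries of a genotype came from separate mice or cultures, were not stated in any source used here. The p-values therefore measure the spread between libraries, which may be technical.

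Nuclear receptors are transcription factors, many of which bind a small lipid-soluble ligand. LXRs are activated by oxysterols and switch on genes of cholesterol export and fatty acid synthesis, and they bind DNA as pairs with an RXR. PPARs also pair with RXRs and respond to fatty acids, while the glucocorticoid receptor is held by chaperones in the cytoplasm until a steroid binds it. In macrophages, several of these receptors are known to restrain inflammatory genes. Nr4a1 (Nur77) and its relatives Nr4a2 and Nr4a3 have no classical ligand and are induced within minutes of many stimuli, and Nr1d2 (REV-ERBβ) represses clock genes together with Nr1d1.

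Outside the deleted LXR genes, the clearest differences were in Ch25hKO cells, where Nr4a1, Nr1d2 and Rara were all lower than in WT cells. In LXRdKO cells the libraries overlapped with WT for Nr1d2, lay below WT without being called for Rara, and were lower than WT by a smaller margin for Nr4a1. The promoters of these genes are shown here because their transcripts gave these differences. They are RefSeq sequences of build GRCm38.p6, each from 250 bases before to 50 bases after the start of a RefSeq transcript, written 5′ to 3′. Capitals mark TGCGTCA, a sequence of the kind bound by CREB and AP-1 factors, in Nr4a1, the hexamer AGGTCA, a core element bound by many nuclear receptors, in Nr1d2, and the E-box CACGTG, bound by MYC and clock factors, in Rara. The motifs were chosen after the sequences had been read.
Nr4a1, chr15:101266596-101266895, + strand, GRCm38.p6: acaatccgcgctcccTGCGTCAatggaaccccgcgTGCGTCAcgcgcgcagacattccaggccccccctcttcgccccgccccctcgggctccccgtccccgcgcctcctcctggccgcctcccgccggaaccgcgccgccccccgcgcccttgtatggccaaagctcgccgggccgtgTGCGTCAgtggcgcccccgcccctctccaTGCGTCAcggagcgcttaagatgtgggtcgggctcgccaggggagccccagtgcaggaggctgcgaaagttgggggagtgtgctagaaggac
Nr1d2, chr14:18239057-18239356, - strand, GRCm38.p6: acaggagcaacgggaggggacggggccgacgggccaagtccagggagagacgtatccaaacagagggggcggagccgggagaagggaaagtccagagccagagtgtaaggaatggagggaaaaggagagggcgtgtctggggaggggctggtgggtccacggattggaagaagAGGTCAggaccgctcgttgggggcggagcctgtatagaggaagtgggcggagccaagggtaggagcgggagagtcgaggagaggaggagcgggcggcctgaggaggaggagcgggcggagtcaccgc
Rara, first of 4 windows, chr11:98937446-98937745, + strand, GRCm38.p6: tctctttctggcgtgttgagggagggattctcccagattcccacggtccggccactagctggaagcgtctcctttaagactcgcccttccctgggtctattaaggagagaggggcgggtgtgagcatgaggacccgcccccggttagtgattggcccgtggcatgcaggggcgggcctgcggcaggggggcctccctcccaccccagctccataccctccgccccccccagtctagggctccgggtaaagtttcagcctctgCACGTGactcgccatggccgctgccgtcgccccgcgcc

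Both strands were searched. The Nr4a1 window holds TGCGTCA 4 times, starting 235, 215, 71 and 42 bases before the transcript start. Of 32851 mouse promoter windows of the same length, 695 (2.12%) hold it at least once, and 1 holds it 3 times or more, which is the window of Nr4a1. The Nr1d2 window holds AGGTCA once, starting 77 bases before the transcript start, and 16.3% of all windows hold it. The Rara window holds CACGTG once, starting 12 bases after the transcript start, and 7.15% of all windows hold it. RefSeq windows were used for 9 of the 10 genes, 17 windows in all. None was used for Nr3c1, on chromosome 18, so nothing is said of its promoter. Among the windows used, none of another listed gene holds TGCGTCA. The windows of Nr1h3 and Nr1h2 hold none of the 7 motifs searched, which were also TGANTCA (bound by AP-1), TCACNCCAC (a sterol regulatory element), GGGCGG (the GC box) and TATAAA (the TATA box). These matches describe letters only and show neither binding nor a cause.

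In the GENCODE M21 annotation of GRCm38, the genes lie as follows. Nr1h3 is on chromosome 2 (91184061 to 91202834, - strand), and 34 of its exon bases overlap Gm13783 on the same strand. Rxra is also on chromosome 2 (27676440 to 27762957, + strand). Ppard (28232700 to 28301474, + strand) and Rxrb (34031812 to 34038399, + strand) are on chromosome 17. Nr1h2 is on chromosome 7 (44549616 to 44553951, - strand), Pparg on chromosome 6 (115360951 to 115490399, + strand) and Rara on chromosome 11 (98927818 to 98974942, + strand). Nr1d2 is on chromosome 14 (18204054 to 18239127, - strand), Nr4a1 on chromosome 15 (101254269 to 101274795, + strand) and Nr3c1 on chromosome 18 (39410545 to 39519421, - strand). The printed windows of Nr4a1 and Rara lie inside these gene spans, downstream of their first base. No listed gene other than Nr1h3 shares exon bases with another gene.

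Libraries held 41650513 to 45872964 counts. Levels are given in CPM (TMM-scaled read counts relative to the library total), and levels of different genes are compared only as CPM per kb of exon. A gene was called higher or lower at a Benjamini-Hochberg adjusted p under 0.05 in edgeR's quasi-likelihood test over all 12923 genes. The 9 of 11 listed macrophage marker genes found in the table summed to 20437 and 20620 CPM in LXRdKO, 17073 and 17732 CPM in Ch25hKO, and 17120 and 18579 CPM in WT libraries. Ch25h had 57.2 and 62.5 CPM in LXRdKO, 0.969 and 1.31 CPM in Ch25hKO, and 70.2 and 70.8 CPM in WT libraries, so the Ch25hKO libraries matched their label.

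The LXR genes were measured first because they check the LXRdKO label. Nr1h3 had 0.957 and 0.927 CPM in LXRdKO, 18.6 and 19.7 CPM in Ch25hKO, and 16.0 and 17.4 CPM in WT libraries. Nr1h2 had 0.798 and 0.792 CPM in LXRdKO, 32.5 and 34.6 CPM in Ch25hKO, and 29.1 and 32.3 CPM in WT libraries. Both LXRdKO libraries stood far below the other 4 for both genes, at 5.66% of the WT level for Nr1h3 and 2.60% for Nr1h2. In Ch25hKO cells both transcripts were above WT in each library, but the differences of 0.20 ± 0.08 for Nr1h3 (log2 fold change ± SE, edgeR adjusted p = 0.0536) and 0.13 ± 0.07 for Nr1h2 (edgeR adjusted p = 0.144) were not called. Both were called without WT replicate 2. Nr1h3 stayed uncalled under 12 of 15 alternatives and Nr1h2 under 14. With a library left out, the difference ran from 0.138 to 0.245 for Nr1h3 and from 0.0555 to 0.189 for Nr1h2. Nr1h2 was the more abundant of the pair per kb of exon, by a ratio of 1.31 and 1.32 in Ch25hKO and 1.37 and 1.39 in WT libraries.

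Of the 8 genes targeted by neither knockout, 2 were higher and 1 lower in LXRdKO than in WT cells, where 31.8% of all tested genes were called in either direction (16.4% higher and 15.5% lower). Of all 10 genes, Ch25hKO cells had none above and 3 below WT, against 39.3% of all tested genes (19.8% higher and 19.5% lower). At an unadjusted p under 0.05 in edgeR, 2 of the 10, Nr1h3 and Nr3c1, were higher in Ch25hKO cells. Between LXRdKO and Ch25hKO cells, 4 of the 8 were higher and 1 was lower in LXRdKO, against 37.9% of all tested genes (19.3% higher and 18.6% lower). The shares of receptors called in the comparisons with WT were close to these backgrounds. The 3 comparisons share libraries, so their values stand side by side and do not support each other. In RNA from a whole culture, fewer cells that express a gene and less RNA per cell cannot be told apart.

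**Figure D1:**
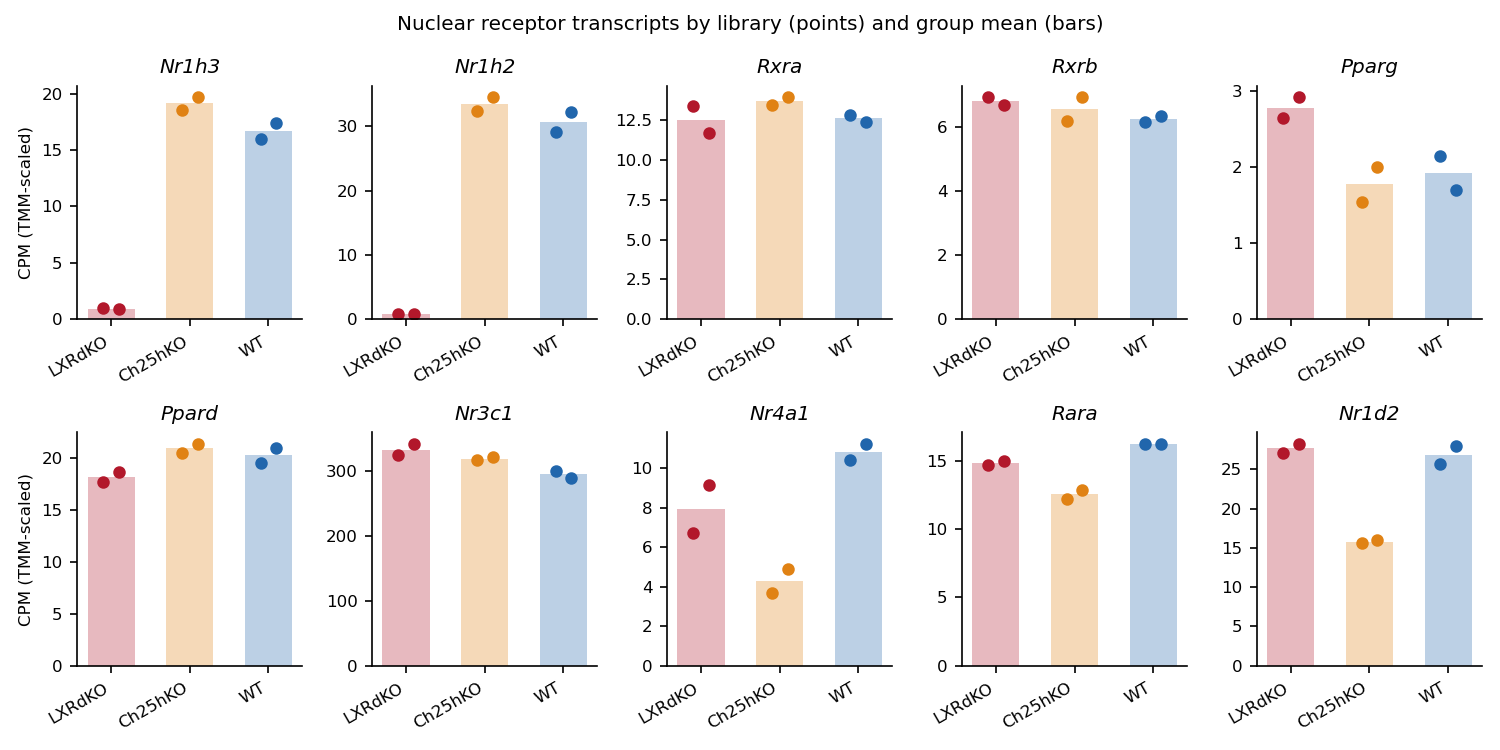
Level of the 10 receptor transcripts in CPM (y axis, from 0, own scale for each gene) in LXRdKO, Ch25hKO and WT macrophages, with 1 point per library and bars at the mean of 2 libraries. Nr4a1, Rara and Nr1d2 are lowest in the Ch25hKO libraries, while Rxra and Rxrb overlap or lie close together in all groups.

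The RXRs, the partners with which LXRs and PPARs bind DNA, were called in no comparison. Rxra had 13.4 and 11.7 CPM in LXRdKO, 13.4 and 13.9 CPM in Ch25hKO, and 12.9 and 12.4 CPM in WT libraries. Rxrb had 6.93 and 6.70 CPM in LXRdKO, 6.18 and 6.93 CPM in Ch25hKO, and 6.14 and 6.33 CPM in WT libraries. The LXRdKO libraries lay around the WT libraries for Rxra and above them for Rxrb. The 95% interval of the ratio of LXRdKO to WT ran from 0.877 to 1.13 for Rxra and from 0.935 to 1.28 for Rxrb, and that of Ch25hKO to WT from 0.959 to 1.23 for Rxra and from 0.899 to 1.23 for Rxrb. Rxrg, the third RXR, had 0 counts in every library. The summed RXR level per kb of exon was 6.79 and 6.32 times the summed LXR level in LXRdKO, 0.235 and 0.237 times in Ch25hKO, and 0.260 and 0.233 times in WT libraries, a shift set by the deletion of the LXR genes.

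In LXRdKO cells, Pparg was called higher than in both other genotypes, and Ppard was called lower only against Ch25hKO. Pparg, which drives lipid uptake genes in macrophages, had 2.64 and 2.92 CPM in LXRdKO, 1.55 and 1.995 CPM in Ch25hKO, and 2.14 and 1.70 CPM in WT libraries. Both LXRdKO libraries lay above the other 4, and the Ch25hKO and WT libraries overlapped. Pparg was higher in LXRdKO than in WT cells by 0.53 ± 0.18 (edgeR adjusted p = 0.0338) and than in Ch25hKO cells by 0.65 ± 0.19 (edgeR adjusted p = 0.00957). At 67 to 129 counts per library it is the gene with the fewest reads of the 8, and its call against WT was lost with DESeq2 (adjusted p = 0.152). That call was also lost in edgeR without WT replicate 2 (adjusted p = 0.182), LXRdKO replicate 1 (0.0864) or LXRdKO replicate 2 (0.199), and the call against Ch25hKO was lost without Ch25hKO replicate 1 (0.143) or LXRdKO replicate 2 (0.0962).

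Ppard, a fatty acid receptor expressed in most tissues, had 17.7 and 18.6 CPM in LXRdKO, 20.5 and 21.4 CPM in Ch25hKO, and 19.5 and 20.9 CPM in WT libraries. The LXRdKO libraries were the lowest for this gene, and the Ch25hKO and WT libraries overlapped. It was lower in LXRdKO than in Ch25hKO cells by an amount of -0.20 ± 0.07 (edgeR adjusted p = 0.0297), while -0.16 ± 0.07 against WT did not pass (edgeR adjusted p = 0.107). The call against Ch25hKO was lost with DESeq2 (adjusted p = 0.124) and, in edgeR, without each of the 4 libraries compared (adjusted p = 0.0768 and 0.188 without Ch25hKO replicates 1 and 2, 0.187 and 0.0676 without LXRdKO replicates 1 and 2). Against WT it stayed uncalled under 13 of 15 alternatives. It passed without WT replicate 1 and with at least 5 CPM in 2 libraries.

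The glucocorticoid receptor was by far the most abundant of these transcripts. Nr3c1 had 324 and 342 CPM in LXRdKO, 316 and 322 CPM in Ch25hKO, and 300.2 and 289 CPM in WT libraries. The 2 WT libraries were the lowest and did not overlap either knockout. It was higher in LXRdKO than in WT cells by 0.18 ± 0.05 (edgeR adjusted p = 0.0161), 113% of the WT level, while 0.11 ± 0.05 in Ch25hKO did not pass (edgeR adjusted p = 0.0954). The call in LXRdKO was lost in a fit of only the libraries compared (edgeR adjusted p = 0.0526) and without WT replicate 2 (0.0530), Ch25hKO replicate 1 (0.0519) or LXRdKO replicate 2 (0.194). In Ch25hKO cells it passed without WT replicate 1 (edgeR adjusted p = 0.0404).

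Nr4a1, the immediate early receptor, showed the largest change among the 8 listed genes that neither knockout targets. It had 6.72 and 9.18 CPM in LXRdKO, 3.69 and 4.89 CPM in Ch25hKO, and 10.4 and 11.3 CPM in WT libraries. The 3 genotypes did not overlap: WT was highest, LXRdKO lay between and Ch25hKO was lowest. In Ch25hKO cells it fell to 39.6% of the WT level, a difference of -1.34 ± 0.15 (edgeR adjusted p = 4.92e-06). In LXRdKO cells it was lower than in WT by -0.45 ± 0.14 (edgeR adjusted p = 0.0219), a call lost without LXRdKO replicate 1, when the difference was -0.24 (edgeR adjusted p = 0.271). The difference between both knockouts, with LXRdKO 1.85-fold above Ch25hKO, was 0.89 ± 0.15 (edgeR adjusted p = 0.000277).

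Rara, the retinoic acid receptor that pairs with RXR, had 14.7 and 14.95 CPM in LXRdKO, 12.2 and 12.8 CPM in Ch25hKO, and 16.3 and 16.2 CPM in WT libraries. The 3 genotypes were again apart in the same order. Rara fell to 77.3% of the WT level in Ch25hKO cells, by -0.37 ± 0.08 (edgeR adjusted p = 0.000807), and the -0.13 ± 0.07 in LXRdKO cells did not pass (edgeR adjusted p = 0.204). It was higher in LXRdKO than in Ch25hKO cells by 0.24 ± 0.08 (edgeR adjusted p = 0.0181). That last call was lost with DESeq2 (adjusted p = 0.0692) and in edgeR without Ch25hKO replicate 1 (0.156) or either LXRdKO replicate (0.0627 without the first and 0.103 without the second).

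Nr1d2, the clock repressor, was lower in Ch25hKO cells and near the WT level in LXRdKO cells. It had 27.1 and 28.3 CPM in LXRdKO, 15.6 and 16.0 CPM in Ch25hKO, and 25.7 and 28.0 CPM in WT libraries. The 2 Ch25hKO libraries were well below the other 4, among which LXRdKO and WT overlapped. In Ch25hKO cells it fell to 58.8% of the WT level, by -0.77 ± 0.07 (edgeR adjusted p = 1.17e-07), while LXRdKO differed from WT by 0.04 ± 0.07 (edgeR adjusted p = 0.657). LXRdKO cells had 1.75-fold more than Ch25hKO cells, a difference of 0.81 ± 0.07 (edgeR adjusted p = 4.05e-08). The falls of Nr1d2, Nr4a1 and Rara in Ch25hKO cells passed under all 15 alternative ways of processing, and so did the differences of Nr1d2 and Nr4a1 between LXRdKO and Ch25hKO.

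**Figure D2:**
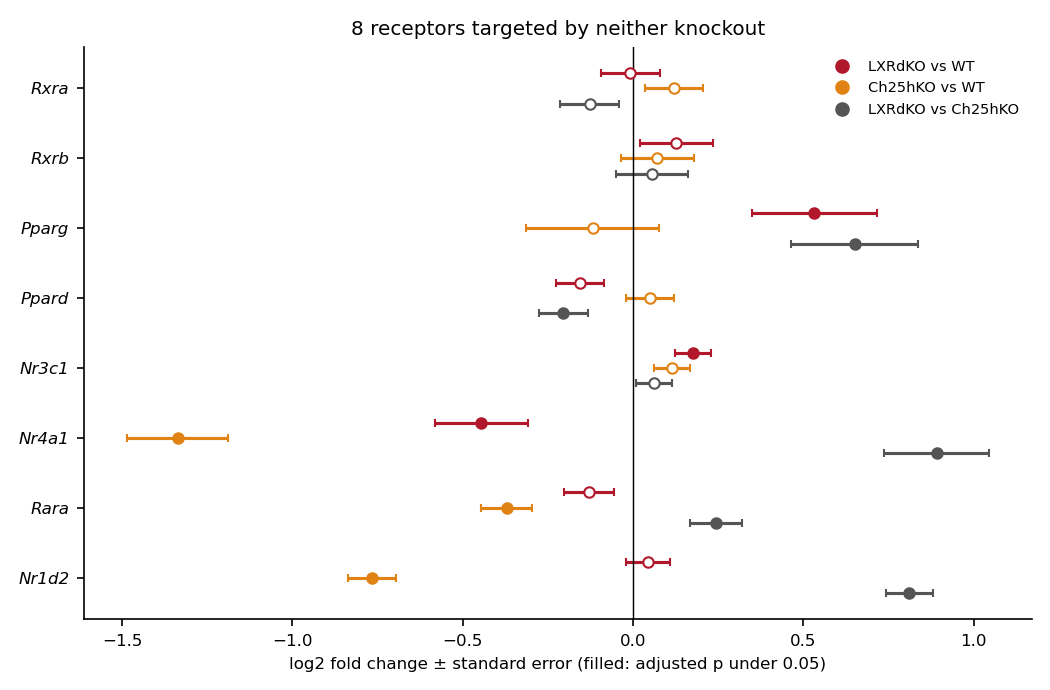
Log2 fold change with its standard error (x axis) for the 8 receptors that neither knockout targets, in LXRdKO vs WT, Ch25hKO vs WT and LXRdKO vs Ch25hKO. Filled points have an edgeR adjusted p under 0.05, with Nr4a1 at -1.34 and Nr1d2 at -0.77 in Ch25hKO vs WT and at 0.89 and 0.81 in LXRdKO vs Ch25hKO.

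Per kb of exon, Nr3c1 was the most abundant receptor transcript in every genotype, at 43.4 ± 1.69 in LXRdKO, 41.5 ± 0.485 in Ch25hKO and 38.4 ± 0.999 in WT cells (CPM per kb, SD, n = 2 each). It made up 57.4% and 58.2% of the summed level of 49 nuclear receptor genes in LXRdKO, 48.4% and 47.7% in Ch25hKO, and 46.1% and 43.7% in WT libraries. This sum includes the LXR genes, so their deletion by itself raises the share in LXRdKO. The LXR part of the sum was 0.618 and 0.605 CPM per kb in LXRdKO libraries. It was 17.07 and 18.14 in Ch25hKO and 15.02 and 16.54 in WT libraries. The larger share in LXRdKO therefore does not by itself show more Nr3c1 relative to the remaining receptors. In WT cells the listed genes then ran, in mean CPM per kb, Nr1h2 at 9.14, Nr1h3 at 6.64, Nr1d2 at 4.97, Rara at 3.72, Nr4a1 at 3.09, Ppard at 2.69, Rxra at 2.31, Rxrb at 1.57 and Pparg at 0.650. No neighbours in that WT order overlapped between their libraries. In Ch25hKO cells Nr1d2 (2.92), Rara (2.87) and Ppard (2.78) each overlapped its neighbour in the order, after Nr1h2 (9.99) and Nr1h3 (7.61). Rxra (2.51), Rxrb (1.65), Nr4a1 (1.22) and Pparg (0.5995) followed there. In LXRdKO cells Nr1d2 (5.12) and Rara (3.40) came after Nr3c1, and Ppard (2.42), Rxra (2.295) and Nr4a1 (2.27) overlapped one another. Below them were Rxrb (1.71), Pparg (0.942) and the remaining LXR reads, 0.375 for Nr1h3 and 0.237 for Nr1h2.

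**Figure D3:**
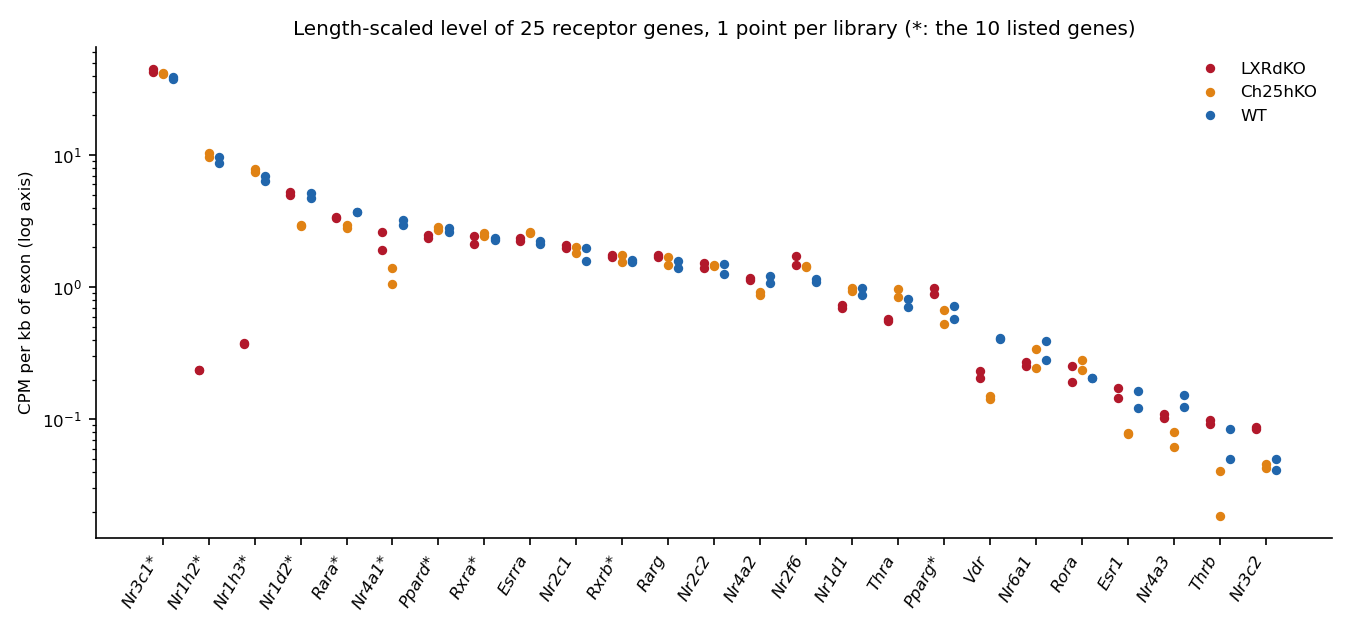
Level in CPM per kb of exon (y axis, log scale) of the 25 nuclear receptor genes that were tested, with 1 point per library of LXRdKO, Ch25hKO and WT macrophages. Asterisks mark the 10 listed genes, with Nr3c1 highest at 38.4 in WT cells and Pparg at 0.650.

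Of 49 nuclear receptor genes in the table, 39 are not among the listed genes. Of these, 15 were tested, 8 had 0 counts in every library, and the other 16 had at most 13 counts in any library. A count of 0 allows up to 3 counts, or 0.0654 to 0.0720 CPM before scaling. In LXRdKO cells 1 of the 15 was higher and 2 were lower than in WT. In Ch25hKO cells 1 was higher and 5 were lower, and LXRdKO exceeded Ch25hKO in 3 and was below it in 2. These are 20%, 40% and 33.3% of the 15, close to or below the shares of all tested genes called (31.8%, 39.3% and 37.9%).

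Vdr, the vitamin D receptor, had 51 and 58 counts in LXRdKO, 35 and 37 in Ch25hKO, and 101 and 102 in WT libraries. Every library of both knockouts was below the WT libraries, in the same order of genotypes as for Nr4a1 and Rara. It fell by 0.90 on the log2 scale in LXRdKO (SE 0.20, edgeR adjusted p = 0.00189) and by 1.48 in Ch25hKO (SE 0.21, edgeR adjusted p = 2.44e-05). These calls passed under all alternatives in which Vdr was tested. The relatives of Nr4a1 were also lower in Ch25hKO than in WT: Nr4a2 by -0.36 ± 0.13 (edgeR adjusted p = 0.0327) and Nr4a3 by -0.96 ± 0.32 (edgeR adjusted p = 0.0253), with Nr4a3 at only 16 to 40 counts per library. Nr4a2 was higher in LXRdKO than in Ch25hKO by 0.36 ± 0.13 (edgeR adjusted p = 0.0349). All of these Nr4a2 and Nr4a3 calls were lost with DESeq2, and each was lost with Ch25hKO replicate 1 or 2 left out in turn and with at least 1 further library left out.

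Esr1, the estrogen receptor, was below WT in Ch25hKO cells by -0.86 ± 0.22 (edgeR adjusted p = 0.00443, lost at 0.0512 without WT replicate 1) and higher in LXRdKO than in Ch25hKO by 1.02 ± 0.22 (edgeR adjusted p = 0.000932). Nr2f6, an orphan receptor, was higher in LXRdKO than in WT by 0.51 ± 0.13 (edgeR adjusted p = 0.00703, lost at 0.105 without LXRdKO replicate 1). Esrra, an orphan receptor of energy metabolism, was higher in Ch25hKO than in WT by 0.25 ± 0.09 (edgeR adjusted p = 0.0267), which DESeq2 did not call and which was lost without WT replicate 2 or either Ch25hKO replicate. Thrb, a thyroid hormone receptor with 6 to 32 counts per library, was below WT in Ch25hKO cells by -1.18 ± 0.45 (edgeR adjusted p = 0.0470, lost under 7 alternatives) and higher in LXRdKO than in Ch25hKO by 1.67 ± 0.43 (edgeR adjusted p = 0.00453, lost without Ch25hKO replicate 2). The other thyroid hormone receptor gene, Thra, was lower in LXRdKO than in WT (-0.43 ± 0.15, edgeR adjusted p = 0.0356, not called by DESeq2, and lost when WT replicate 1 or either LXRdKO replicate was left out) and than in Ch25hKO (-0.67 ± 0.15, edgeR adjusted p = 0.00130). Nr1d1, a relative of Nr1d2, was lower in LXRdKO than in Ch25hKO by -0.42 ± 0.16 (edgeR adjusted p = 0.0419). DESeq2 did not call this difference, and the call was lost without any 1 of the 4 libraries compared. Thra and Nr1d1 share 263 exon bases on opposite strands, and Nr2f6 shares 1622 of its 2983 exon bases with Ocel1 on the opposite strand. No source used here states the strand setting of the counting, so the values of these 3 receptors are uncertain.

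**Figure D4:**
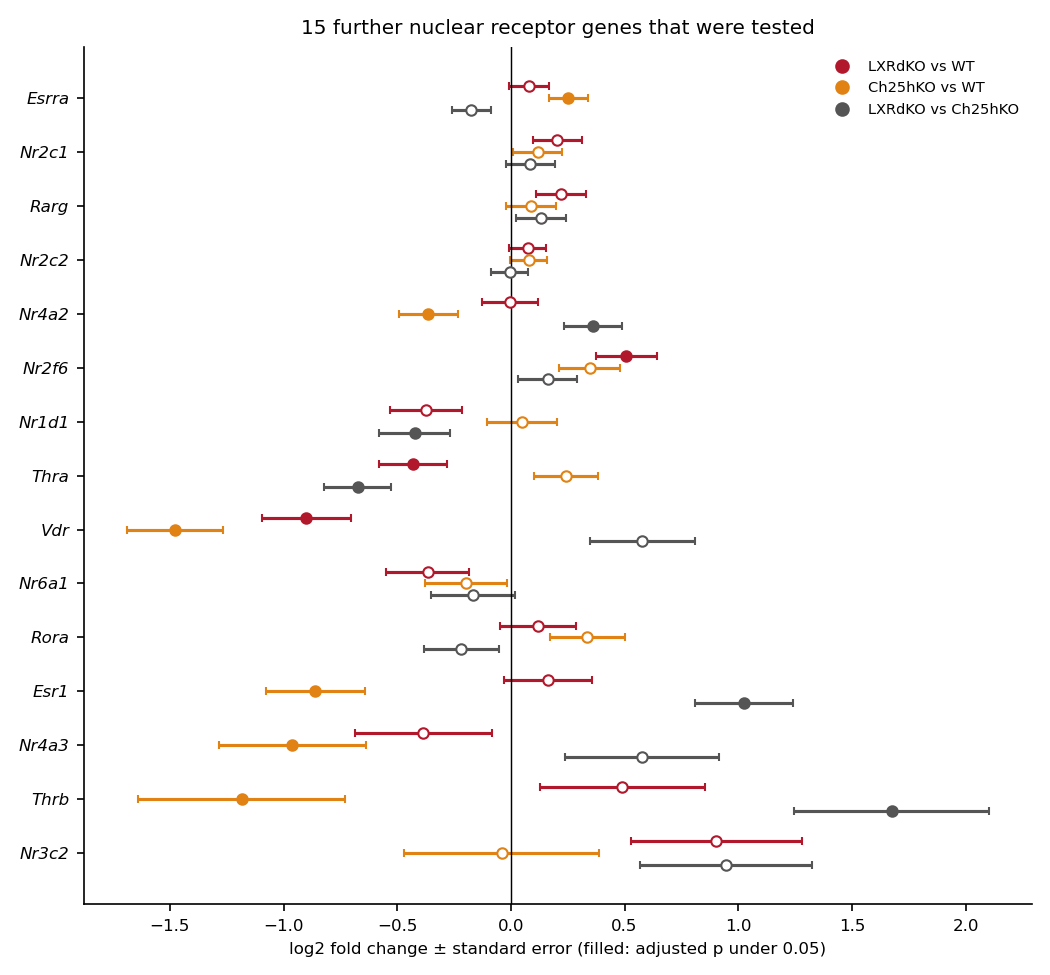
Log2 fold change with its standard error (x axis) for the 15 other nuclear receptors that were tested, in LXRdKO vs WT, Ch25hKO vs WT and LXRdKO vs Ch25hKO. Filled points have an edgeR adjusted p under 0.05, with Vdr at -0.90 in LXRdKO and -1.48 in Ch25hKO cells relative to WT.

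For each listed gene, the tested receptor with the most similar profile over the 6 libraries was found by Pearson's r of log2 CPM among 24 others. For Nr4a1 it was Rara (r = 0.980), for Nr1d2 it was Nr4a2 (0.923), for Ppard it was Nr1d1 (0.981), for Rxrb Rarg (0.890), for Pparg Nr3c2 (0.850), for Nr3c1 Nr2f6 (0.819) and for Rxra Esrra (0.756). Nr1h3 and Nr1h2 were each other's nearest (r = 0.9998, set by the knockout). These values describe 6 points in 3 genotypes that share library and scaling, and they carry no test.

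The genes that work with these receptors were counted from 8 lists, beside a median log2 fold change over all tested genes of 0.00261 in LXRdKO vs WT, 0.00636 in Ch25hKO vs WT and -0.013 in LXRdKO vs Ch25hKO. Of all tested genes, 31.8%, 39.3% and 37.9% were called in that order. In LXRdKO vs WT, 23.5% of the clock genes and 16.7% of the retinoid pathway genes were called, less than that background. The other list shares ran from 40% (glucocorticoid receptor chaperones and ligand enzymes) to 84.2% (LXR targets), both in Ch25hKO vs WT. The lists were chosen with earlier results known, so these shares carry no test. Of 24 corepressors and coactivators tested, 9 were higher and 1 lower in LXRdKO than in WT (list median 0.109), and the Ch25hKO cells had 6 above and 6 below WT (0.0188). LXRdKO was above Ch25hKO in 9 and below it in 2 (0.0676). Ncoa1, a coactivator of steroid receptors, was lower in Ch25hKO than in WT (-0.54 ± 0.05) and higher in LXRdKO than in Ch25hKO (0.73 ± 0.05). Pprc1, a PGC-related coactivator, was higher in both knockouts than in WT (0.45 ± 0.08 in LXRdKO and 0.86 ± 0.08 in Ch25hKO), as was Ncoa4 (0.44 ± 0.06 in LXRdKO and 0.39 ± 0.06 in Ch25hKO). Sirt1, a deacetylase, was lower in both (-0.37 ± 0.06 in LXRdKO and -0.50 ± 0.06 in Ch25hKO). Without LXRdKO replicate 2, 5 corepressors and coactivators were higher in LXRdKO than in WT. Without WT replicate 1 or 2, 2 were lower in LXRdKO than in WT, and without Ch25hKO replicate 1 or LXRdKO replicate 1, 1 was lower in LXRdKO than in Ch25hKO. Of the genes named from this and the following lists, Ncoa1, Pprc1, Sirt1, Scd2, Zfp36, Irak3, Dnaja1, Dusp1, Bhlhe40 and Tgm2 share 11 to 633 exon bases with another annotated gene, so a part of their counts is uncertain.

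Of the LXR target genes tested, apart from Nr1h3 where it was deleted, 6 of 18 were higher and 7 lower in LXRdKO than in WT (median -0.0689), and in Ch25hKO cells 9 of 19 were above and 7 below WT (median 0.147). LXRdKO was above Ch25hKO in 9 of 18 and below it in 6 (0.269). Mylip, which targets the LDL receptor for degradation, was lower in both knockouts (-1.85 ± 0.06 in LXRdKO and -1.41 ± 0.06 in Ch25hKO, against WT). The fatty acid desaturase Scd2 moved in opposite directions, with -2.19 ± 0.08 in LXRdKO and 1.56 ± 0.07 in Ch25hKO against WT. Other targets did not fall most without LXRs. Apoe was higher in LXRdKO than in WT (1.15 ± 0.06). Abcg1 was lower in Ch25hKO than in WT (-2.60 ± 0.07) and higher in LXRdKO than in Ch25hKO (1.69 ± 0.07). It averaged 134 CPM in LXRdKO, 41.6 CPM in Ch25hKO and 253 CPM in WT cells. Of 15 PPAR targets, 1 was higher and 7 lower in LXRdKO than in WT (-0.162), Ch25hKO cells had 3 above and 7 below WT (-0.094), and 4 higher and 5 lower in LXRdKO than in Ch25hKO (-0.0707). The fatty acid transporter Cd36 was lower in both knockouts than in WT (-0.60 ± 0.05 in LXRdKO and -0.49 ± 0.05 in Ch25hKO), and the lipid chaperone Fabp5 was higher in both (0.25 ± 0.06 in LXRdKO and 0.62 ± 0.05 in Ch25hKO). Without LXRdKO replicate 1, 3 PPAR targets were lower in LXRdKO than in WT.

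Of 10 glucocorticoid receptor chaperones and ligand enzymes tested, a list that also holds Nr3c1, 2 were higher and 6 lower in LXRdKO than in WT (median -0.232), Ch25hKO cells had 2 above and 2 below WT (-0.00659), and none was higher and 6 were lower in LXRdKO than in Ch25hKO (-0.234). That count of 0 was also 0 at an unadjusted p under 0.05 in edgeR and with DESeq2 and limma-voom. The 2 higher in LXRdKO than in WT were Nr3c1 itself and the co-chaperone Stip1 (0.15 ± 0.05, edgeR adjusted p = 0.0359), which was named after its value was seen. The HSP90 co-chaperone Ptges3 averaged 69.8 CPM in LXRdKO, 128 CPM in Ch25hKO and 121 CPM in WT cells, and differed between LXRdKO and WT by -0.79 ± 0.06 (edgeR adjusted p = 3.09e-08). Hsp90aa1 (-0.52 ± 0.06), Hsp90ab1 (-0.30 ± 0.07) and Dnaja1 (-0.64 ± 0.06) were lower in LXRdKO than in WT too. Some of these changes were shared with Ch25hKO cells. Against WT, Stip1 (0.43 ± 0.05) and Fkbp4 (0.34 ± 0.07) were higher there, and Dnaja1 (-0.49 ± 0.06) and Hsp90aa1 (-0.16 ± 0.06) were lower. Without LXRdKO replicate 2, 3 were lower and 0 higher in LXRdKO than in WT, and the 2 higher came to 0 or 1 under 10 alternatives in all. The 2 lower in Ch25hKO came to 1 under 6 alternatives.

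Of 18 glucocorticoid receptor targets, 5 were higher and 9 lower in LXRdKO than in WT (median -0.142), Ch25hKO cells had 7 above and 5 below WT (-0.029), and 4 were higher and 9 lower in LXRdKO than in Ch25hKO (-0.247). Zfp36, which destabilises inflammatory mRNAs, was lower in LXRdKO than in WT by -0.88 ± 0.06. It was also called lower in Ch25hKO than in WT, by -0.76 to -0.60 under the 15 alternatives. Its mean was 792 CPM in LXRdKO, 913 CPM in Ch25hKO and 1457 CPM in WT cells. The kinase gene Sgk1 was lower in Ch25hKO than in WT by -0.68 ± 0.06. Irak3, an inhibitor of toll-like receptor signalling, was higher in Ch25hKO than in WT by 0.65 ± 0.05. It averaged 229 CPM in LXRdKO, 284 CPM in Ch25hKO and 181 CPM in WT cells, so its mean was above WT in both knockouts. Without LXRdKO replicate 2, or with at least 5 CPM in 2 libraries, 3 targets were higher in LXRdKO than in WT, and without Ch25hKO replicate 1, 2 were higher in LXRdKO than in Ch25hKO.

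Nr4a1 is itself in the list of immediate early genes, of which 19 were tested. In LXRdKO 2 were higher and 11 lower than in WT (median -0.308), and in Ch25hKO 1 was higher and 11 were lower than in WT (-0.344). LXRdKO was above Ch25hKO in 8 and below it in 4 (0.19). Fos, an AP-1 subunit, averaged 30.8 CPM in LXRdKO, 18.3 CPM in Ch25hKO and 31.8 CPM in WT cells, and differed between Ch25hKO and WT by -0.79 ± 0.07 (edgeR adjusted p = 1.15e-07). The phosphatase gene Dusp1 was lower in both knockouts than in WT (-0.50 ± 0.07 in LXRdKO and -0.69 ± 0.07 in Ch25hKO), and Egr1 was higher in LXRdKO than in Ch25hKO by 1.01 ± 0.09. The stress response gene Ier3 was lower in LXRdKO than in WT (-0.68 ± 0.05) and than in Ch25hKO (-1.04 ± 0.05). So was the AP-1 subunit Fosl2 (-0.55 ± 0.05 against WT and -0.64 ± 0.05 against Ch25hKO). Without LXRdKO replicate 1, 6 were lower in LXRdKO than in WT, and 4 or 5 were higher in LXRdKO than in Ch25hKO without Ch25hKO replicate 1 or either LXRdKO replicate. Without WT replicate 1, 2 were higher in Ch25hKO than in WT.

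Nr1d2 had the lowest p of the 17 clock genes tested in Ch25hKO vs WT, where 6 were higher and 4 lower (median 0.188). In LXRdKO vs WT 1 was higher and 3 were lower (-0.104), and in LXRdKO vs Ch25hKO 2 were higher and 8 lower (-0.224). The period gene Per3 was higher in Ch25hKO than in WT by 0.89 ± 0.14 (edgeR adjusted p = 7.46e-05), and Per2 was lower in LXRdKO than in WT by -0.69 ± 0.13 (edgeR adjusted p = 0.000662). Bhlhe40, a repressor of the clock, was higher in Ch25hKO than in WT by 0.30 ± 0.06. Nfil3 was called lower in Ch25hKO than in WT, by -0.35 to -0.17 under the 15 alternatives. The 6 higher genes of Ch25hKO came to 3 with DESeq2, to 3 with at least 5 CPM in 2 libraries, and to 2 and 3 when Ch25hKO replicates 1 and 2 were left out in turn. Without Ch25hKO replicate 1, 2 were lower in Ch25hKO than in WT and 5 in LXRdKO than in Ch25hKO, and the last count was 4 with at least 5 CPM in 2 libraries. Without LXRdKO replicate 1, 1 was lower in LXRdKO than in WT, and the 1 higher there came to 0 under 6 alternatives.

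Of 12 retinoid pathway genes tested, Ch25hKO cells had 3 above and 4 below WT (median 0.0796), 1 was higher and 1 lower in LXRdKO than in WT (-0.0363), and 4 were higher and 3 lower in LXRdKO than in Ch25hKO (0.0447). Rara, Rxra and Rxrb are in this list, and Rara is among the 4 lower in Ch25hKO. Tgm2, a transglutaminase induced by retinoic acid, averaged 307 CPM in LXRdKO, 154 CPM in Ch25hKO and 258 CPM in WT cells, and differed between Ch25hKO and WT by -0.74 ± 0.05 (edgeR adjusted p = 5.19e-09). The retinol dehydrogenases Rdh11 (1.01 ± 0.08) and Rdh10 (0.63 ± 0.10) were higher in Ch25hKO than in WT, while Dhrs9, another of these enzymes, was lower (-0.67 ± 0.09). The 4 higher in LXRdKO than in Ch25hKO came to 2 in DESeq2, and to 2 without Ch25hKO replicate 1 or LXRdKO replicate 2. The 1 lower in LXRdKO than in WT came to 0 in DESeq2, and to 0 with WT replicate 1 or either LXRdKO replicate left out.

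**Figure D5:**
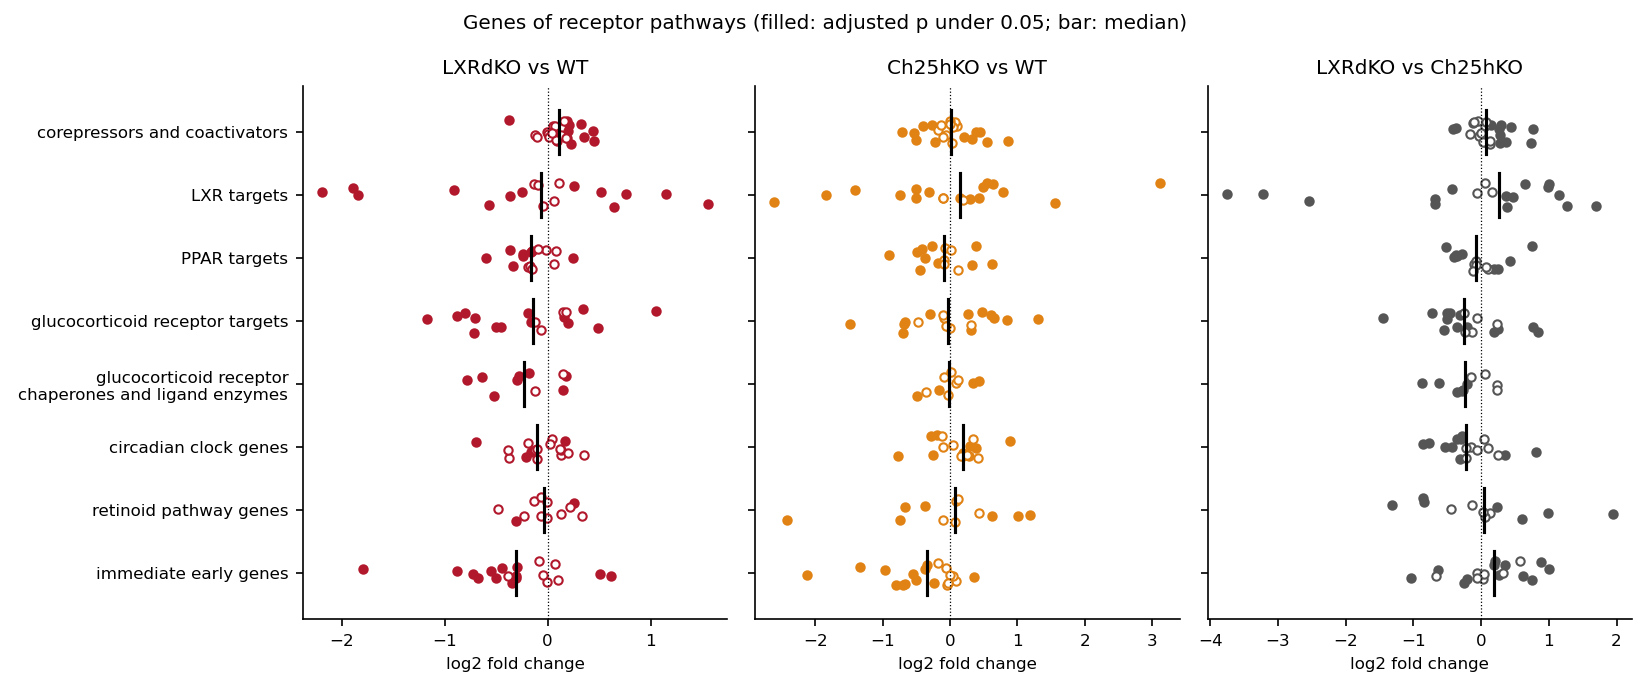
Log2 fold change (x axis) of every tested gene of 8 receptor pathway lists, 1 panel per comparison, with filled points for an edgeR adjusted p under 0.05 and a bar at the list median. The immediate early genes have medians of -0.308 in LXRdKO vs WT and -0.344 in Ch25hKO vs WT, and the points are spread vertically only for legibility.

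Summed markers of other cells moved with some of these results. Summed dendritic cell markers were 28.3 and 29.9 CPM in LXRdKO, 21.4 and 22.02 CPM in Ch25hKO, and 36.0 and 36.4 CPM in WT libraries. This is the order seen for Nr4a1 and Rara. Of 9 tested, 3 were lower and 0 higher in Ch25hKO than in WT (33.3%, against 39.3% of all tested genes called). Between LXRdKO and Ch25hKO, 2 were higher and 2 lower in LXRdKO (median -0.177), so the list as a whole did not share the order of the sum. Summed stromal cell markers were 25.9 and 25.5 CPM in LXRdKO, 39.1 and 36.9 CPM in Ch25hKO, and 26.4 and 27.4 CPM in WT libraries. Ch25hKO cells had 6 of 8 above and 1 below WT (87.5%, against 39.3% of all tested genes called). Erythroid and megakaryocyte markers summed to 31.6 and 35.3 CPM in LXRdKO, 43.5 and 44.4 CPM in Ch25hKO, and 25.6 and 27.3 CPM in WT libraries, with the globin genes Hbb-b1 and Hba-a1 at 0. Of the 5 tested, 1 was higher in LXRdKO than in WT (median -0.139), and Ch25hKO cells had 1 above and 1 below WT (-0.0481). Mast cell and basophil markers summed to 52.6 and 55.4 CPM in LXRdKO, 50.003 and 53.5 CPM in Ch25hKO, and 64.7 and 70.4 CPM in WT libraries, with Cma1 and Tpsb2 at 0. Only 3 of these markers were tested, and 2 of them were lower in each knockout than in WT. Neutrophil markers summed to 387 to 418 CPM in the 4 knockout libraries and to 362 and 375 CPM in WT libraries. Of the 6 tested, 1 was higher and 4 were lower in LXRdKO than in WT (median -0.79), and 2 were higher in Ch25hKO than in WT (0.096). Those of B, T and NK cells summed to 2.09 to 3.24 CPM in the 4 knockout libraries and to 3.36 and 4.05 CPM in WT libraries. Of the 9 macrophage markers, 7 were higher in LXRdKO than in WT (77.8%, against 31.8% of all tested genes called). Ch25hKO cells had 1 above and 3 below WT (44.4%, against 39.3%). The part of these cells in the receptor results was not tested.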

How the data were processed

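LPS-stimulated macrophages were profiled by RNA sequencing, with 2 libraries for each of 3 genotypes. The authors deposited raw read counts per gene symbol, without normalization. The submitters' processing notes name CASAVA, STAR 2.3.0, HTSeq and mm10. RNA was amplified with an Ovation kit, per the labels' protocols, so reads are not independent molecules and a limit set by a count of 0 covers counting error only. No source used here gives the annotation or strand setting of the counting.

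Groups came from the sample titles. edgeR 4.0.16 in R 4.3.3 kept 12923 of 23337 genes (filterByExpr defaults), holding 99.97% of counts, and scaled libraries by TMM. The quasi-likelihood fit took 6 libraries and a mean for each genotype, leaving 3 residual and 14.4 prior degrees of freedom, and the biological coefficient of variation was 4.41%. The calling threshold was a Benjamini-Hochberg adjusted p of 0.05. The SE was the log2 fold change divided by the square root of F, and intervals used the t distribution. The code was checked on simulated counts. Libraries of a genotype differed by more than sampling noise (chi-square per degree of freedom 4.13 to 11.7).

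The listed genes, the 16 other lists and the tests were chosen with earlier results of these data known. Of each pathway list, up to 4 genes with the lowest p per comparison could be named, and of the other nuclear receptors every called gene. Exon lengths are union exons of GENCODE M21, which may differ from the authors' annotation. Alternatives were RLE and upper-quartile scaling, DESeq2 1.42.0, limma-voom (limma 3.58.1), no filter, at least 5 CPM in 2 libraries, fits restricted to the libraries compared, a block for the replicate number, each library left out (the lone library assumed to vary like other groups), and a crossed block added after seeing the data.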

Additional observations from a re-analysis of the deposited data

How the results depend on the processing

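Of 447 values of the 10 receptors under 15 alternatives, 411 kept their direction and side of the threshold, 20 lost a call, 7 gained one and 9 changed sign without being called. In LXRdKO vs WT, Rxra became 3.43e-06 without the filter and ran from -0.111 to 0.0877 with a library left out, and Nr1d2 ran from -0.0160 to 0.0919. In Ch25hKO vs WT, leaving out a library gave -0.314 to 0.0557 for Pparg, -0.000687 to 0.0845 for Ppard and -0.0130 to 0.143 for Rxrb. In LXRdKO vs Ch25hKO it gave -0.0246 to 0.140 for Rxrb. The cause was not tested, except that leaving out a library leaves fewer samples.

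The 2 receptors higher in LXRdKO than in WT came to 1 with DESeq2, 1 with at least 5 CPM (which leaves Pparg untested) and 1 with only the libraries compared, and to 0 to 2 with a library left out. The 1 lower came to 2 with at least 5 CPM and to 0 to 2 with a library left out. The count of 0 higher in Ch25hKO than in WT came to 1 with limma-voom, 1 without the filter and 0 to 2 with a library left out, and 0 with DESeq2. The 3 lower were 3 in all 15. Between LXRdKO and Ch25hKO the 4 higher came to 2 to 4 with a library left out, and the 1 lower to 0 with DESeq2 and 0 to 1 with a library left out.

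Over all genes, leaving out a library gave 1292 to 2097 higher and 1198 to 2232 lower in LXRdKO vs WT (2116 and 1999 with all libraries), 1501 to 2478 higher in Ch25hKO vs WT (2557) and 1504 to 2828 lower in LXRdKO vs Ch25hKO (2406). Same-numbered libraries did not deviate together over all genes (r = -0.105, -0.0127 and 0.0245). These values cannot exclude a weak pairing by number or one limited to few genes. With the replicate number as a block, 1913 genes were higher and 1843 lower in LXRdKO vs WT, 2372 and 2393 in Ch25hKO vs WT, and 2365 and 2256 in LXRdKO vs Ch25hKO, with unchanged counts of the 10 receptors. A crossed block, chosen after seeing the data, gave 2227 and 2127, 2682 and 2638, and 2586 and 2511 in the same order.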
